A study of Caenorhabditis elegans with 2 samples.

Results

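The genes described here are the snoRNA genes of Caenorhabditis elegans that have a DMD-4 candidate region at their start. DMD-4 is a transcription factor of the DM-domain family, and it was mapped by chromatin immunoprecipitation and sequencing (ChIP-seq) in whole L2 larvae. There was 1 group with 2 biological replicates, replicate 1 and replicate 2, of strain OP418, whose genotype is unc-119(tm4063) III; wgIs418. Its animals carry an integrated transgene that makes DMD-4 with a GFP-FLAG tag at the C terminus, the larvae were of pooled male and female sex, and their age is not known. No untagged or mutant group is compared here, and whole larvae mix all cell types, so no signal can be placed in a tissue.

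A gene was a member when its annotated biotype was snoRNA and the summit of at least 1 region of the pooled candidate list lay between 1000 bp upstream and 200 bp downstream of its annotated start. This held for 90 of 346 annotated snoRNA genes (26%), against 9260 of 46926 genes of every biotype (19.7%). Members were thus chosen by the pooled candidate list itself, so their presence in it and their pooled signals are a description and carry no test. The pooled list holds 11281 regions, and it includes weak regions on purpose. The 212 IDR peaks are the subset kept by the authors' IDR step (irreproducible discovery rate), which looks for ranks that repeat between replicates. They are also the regions of highest pooled signal, since the lowest IDR peak had 46.361 and the highest other region 46.2798. An IDR peak is therefore not a call separate from pooled signal. Signal is the authors' enrichment value of a region, on a scale not given in the sources used here. Replicate 1 has 17531 candidate regions and replicate 2 has 18240.

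Small nucleolar RNAs are short nuclear RNAs that guide the modification of ribosomal RNA and of spliceosomal RNA. C/D box snoRNAs, bound by fibrillarin, NOL56 and NOL58, direct methylation of the ribose, and H/ACA snoRNAs, bound by dyskerin and its partners, direct the change of uridine to pseudouridine. Many snoRNA genes lie in introns of protein-coding host genes, often those of ribosomal proteins, and are cut out of the host transcript. Others have a promoter of their own, and in nematodes some snoRNA genes are preceded by the A box and B box of transfer RNA genes, the elements that TFIIIC and RNA polymerase III read. A region near a snoRNA start can therefore belong to the snoRNA, to its host or to a neighbour.

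The members fell into 4 classes on this account. A snoRNA gene was hosted when it lay wholly inside a protein-coding gene on either strand, and its region was shared when the summit also lay in the same window around a protein-coding start. There were 20 members with neither, called own here, and 70 with a host, a shared region or both. Of those 70, 32 were hosted with a shared region, 22 were hosted with no shared region and 16 had a shared region without a host. Own refers to protein-coding genes only. In 14 of the 20 own members, the strongest region lay in no window of any gene other than snoRNA genes. The 90 members held 93 distinct regions, because 11 members had 2 regions and 8 regions belonged to more than 1 member.

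The first set of sequences is that of the 5 H/ACA-like snoRNA genes whose windows hold the 3 strongest IDR peaks of any member. They are shown because they share an ending. The peaks lie upstream of these genes and cover none of their bases. The 5 lie in introns of ribosomal protein genes and of cdc-48.1, which encodes an AAA ATPase that unfolds ubiquitin-marked proteins. F54E7.10 (chrIII:5679378-5679509, plus strand) and F54E7.11 (chrIII:5679745-5679875, plus strand) lie in rps-12, a small ribosomal subunit gene. K11H12.12 (chrIV:653902-654030, minus strand) and K11H12.13 (chrIV:654229-654361, minus strand) lie in rpl-15, a large subunit gene. C06A1.9 (chrII:10562952-10563064, minus strand) lies in cdc-48.1. All 5 end in the same letters, with the ACA of the class exactly 3 bases before the end, shown in capitals. Sequences are read on the snoRNA strand from the RefSeq copy of WBcel235, the same assembly as ce11.
F54E7.10: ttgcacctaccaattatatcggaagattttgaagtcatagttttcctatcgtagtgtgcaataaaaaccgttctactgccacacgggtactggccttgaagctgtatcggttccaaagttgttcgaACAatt
F54E7.11: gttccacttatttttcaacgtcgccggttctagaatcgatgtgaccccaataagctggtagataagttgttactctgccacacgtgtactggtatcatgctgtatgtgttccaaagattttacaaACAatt
K11H12.12: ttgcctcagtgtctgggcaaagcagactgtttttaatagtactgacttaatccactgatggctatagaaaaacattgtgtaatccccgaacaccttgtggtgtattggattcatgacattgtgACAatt
K11H12.13: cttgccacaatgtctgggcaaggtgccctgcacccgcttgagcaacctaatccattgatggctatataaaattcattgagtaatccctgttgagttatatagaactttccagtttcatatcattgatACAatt
C06A1.9: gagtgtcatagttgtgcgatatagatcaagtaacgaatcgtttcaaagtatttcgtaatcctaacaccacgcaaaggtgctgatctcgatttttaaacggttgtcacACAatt

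The pair in rps-12 matched at 62.1% of aligned bases and the pair in rpl-15 at 65.4%. At the region shared by each pair, every 31-base word was unique in the genome. The ACA ending was found in 5 of the 8 members with an IDR peak, in 22 of 90 members (24.4%) and in 36 of 256 snoRNA genes without a candidate region (14.1%). The exact C box TGATGA in the first 20 bases together with the D box CTGA in the last 20 was found in 0 of the 8, in 5 of 90 members (5.56%) and in 9 of 256 genes without a region (3.52%). Exact letters left 63 members in neither class, so these counts describe spelling and do not sort every gene by kind.

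A second set of sequences shows words like those of tRNA promoters at snoRNA starts. The A-like word was TGGNNNAG and the B-like word GTTCNANNC, where N is any base. Both were chosen after the sequences around member starts had been read. They were looked for on the snoRNA strand, with the B-like word starting 25 to 75 bases after the A-like one. M106.6 (chrII:10840242-10840341, plus strand) lies in an intron of mix-1, a condensin subunit gene, and C04G6.12 (chrII:5105207-5105306, minus strand) lies in an intron of mpk-2 on the opposite strand. Y43F8C.22 (chrV:19643163-19643262, minus strand) is also intronic, while F32E10.10 (chrIV:7574047-7574146, plus strand) and Y59E1B.14 (chrX:1891434-1891533, plus strand) are own members. These 5 are printed from 75 bases before the snoRNA start to 25 bases into the gene, so the gene begins 25 letters from the right end. C51F7.4 (chrV:12303599-12303693, plus strand), inside frm-7, and T27A8.8 (chrX:16057374-16057539, plus strand), which lies between genes, hold both words inside the annotated gene and are printed whole. Capitals mark the A-like word, on the left, and the B-like word.
M106.6: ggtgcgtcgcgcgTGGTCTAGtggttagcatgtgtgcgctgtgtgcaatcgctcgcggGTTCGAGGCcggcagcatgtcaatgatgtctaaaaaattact
C04G6.12: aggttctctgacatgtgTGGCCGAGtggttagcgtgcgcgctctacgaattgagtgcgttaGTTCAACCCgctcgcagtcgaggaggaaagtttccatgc
Y43F8C.22: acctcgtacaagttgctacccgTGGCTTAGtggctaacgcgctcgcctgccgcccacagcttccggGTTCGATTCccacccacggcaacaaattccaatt
F32E10.10: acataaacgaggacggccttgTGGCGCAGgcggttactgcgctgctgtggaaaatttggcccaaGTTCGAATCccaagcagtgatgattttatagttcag
Y59E1B.14: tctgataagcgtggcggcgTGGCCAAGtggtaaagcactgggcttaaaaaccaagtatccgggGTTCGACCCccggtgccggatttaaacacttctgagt
C51F7.4: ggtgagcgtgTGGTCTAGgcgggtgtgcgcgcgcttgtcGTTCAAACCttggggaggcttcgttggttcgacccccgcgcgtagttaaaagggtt
T27A8.8: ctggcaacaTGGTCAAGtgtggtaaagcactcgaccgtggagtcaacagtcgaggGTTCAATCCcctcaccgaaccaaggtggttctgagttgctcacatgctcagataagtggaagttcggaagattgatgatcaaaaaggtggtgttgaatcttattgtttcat

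In a fixed window from 150 bases before to 100 bases after the start, both words in this order were found at 10 of 90 members (11.1%) and at 10 of 256 snoRNA genes without a candidate region (3.91%). The same search found them at 367 of 612 nuclear tRNA genes (60%) and at 22 of 19973 protein-coding genes (0.11%). The B-like word alone was found at 16 of 90 members (17.8%), 34 of 256 snoRNA genes without a region (13.3%), 581 of 612 tRNA genes (94.9%) and 863 of 19973 protein-coding genes (4.32%). Among members, both words were found at 6 of 41 whose summit lay within 200 bp of the start (14.6%) and at 4 of 49 whose summit lay farther away (8.16%). In 17 of the 20 snoRNA genes that have both words, the B-like word began 5 to 27 bp before the annotated start and the A-like word 50 to 72 bp before it. C51F7.3 and C51F7.4 are neighbours inside frm-7 that share a region and the same pair of words, so the 10 members have 9 pairs. No annotated tRNA gene lay within 100 bp of the summit of a member region, and the rest of each region was not checked. These counts were not tested, since the words were read from the same sequences.

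**Figure D1:**
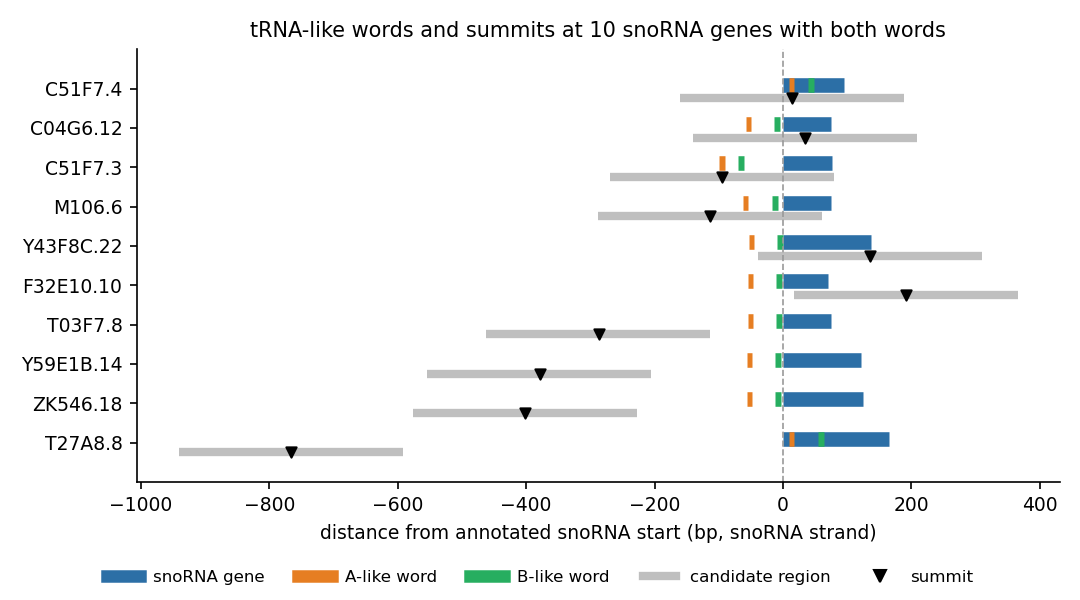
Positions of the A-like word (orange), the B-like word (green), the snoRNA gene (blue), the pooled candidate region (grey) and its summit (triangle) at the 10 members with both words, in bp from the annotated snoRNA start along the snoRNA strand. At 6 of the 10 the summit lies within 200 bp of the start, and at T27A8.8 it lies 766 bp upstream.

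Among the 10 members with both words, the region held both only at C51F7.3, C51F7.4, M106.6 and C04G6.12. At C51F7.4 the summit lay 14 bp after the start, on the A-like word, which began 10 bp after it, and the B-like word began 39 bp after it. At M106.6 it lay 113 bp before the start and at C04G6.12 34 bp after it, with the words of both genes inside the region. At F32E10.10 the summit was 192 bp after the start, and the region began 17 bp after the start and so left the words outside. At Y59E1B.14, T27A8.8, ZK546.18 and T03F7.8 the region ended before the words. At Y43F8C.22 the region held the B-like word alone. Within 100 bp of the summit on either strand, both words were found in 2 of 93 member regions (2.15%) and in 62 of 11254 nuclear candidate regions (0.551%). Of those 62, 38 have an annotated tRNA gene within 100 bp of the summit.

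Of the 90 members, 8 had an IDR peak in the window (8.89%). The background was 2.84% of all genes with a candidate region and 4.81% of protein-coding genes with one. The IDR peaks come from the same lists that chose the members, so nothing is read from this difference. The 8 genes held only 6 distinct peaks, which is 6.45% of the 93 member regions against 1.88% of all pooled regions. Under the rule that gives each region only to the gene with the nearest annotated start, 2 of 57 snoRNA genes kept an IDR peak (3.51%, against 2.99% of all genes by the same rule). Those 2 were T27A8.8 and ZK994.7.

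Of the 8 genes with an IDR peak, 6 were hosted with a shared region and 1, ZK994.7, was hosted with no coding promoter at its region. The own class had 1 of 20 (5%), and members with a host or shared region had 7 of 70 (10%). Beside the own class, 0.87% of nuclear genes other than protein-coding and snoRNA genes had an IDR peak among those with a candidate region and without host or shared promoter. For comparison, 6 of 24 snRNA genes (25%) and 8 of 186 nuclear tRNA genes (4.3%) with a candidate region had an IDR peak. With 1 gene, the own class gives no rate that could be set against these.

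**Figure D2:**
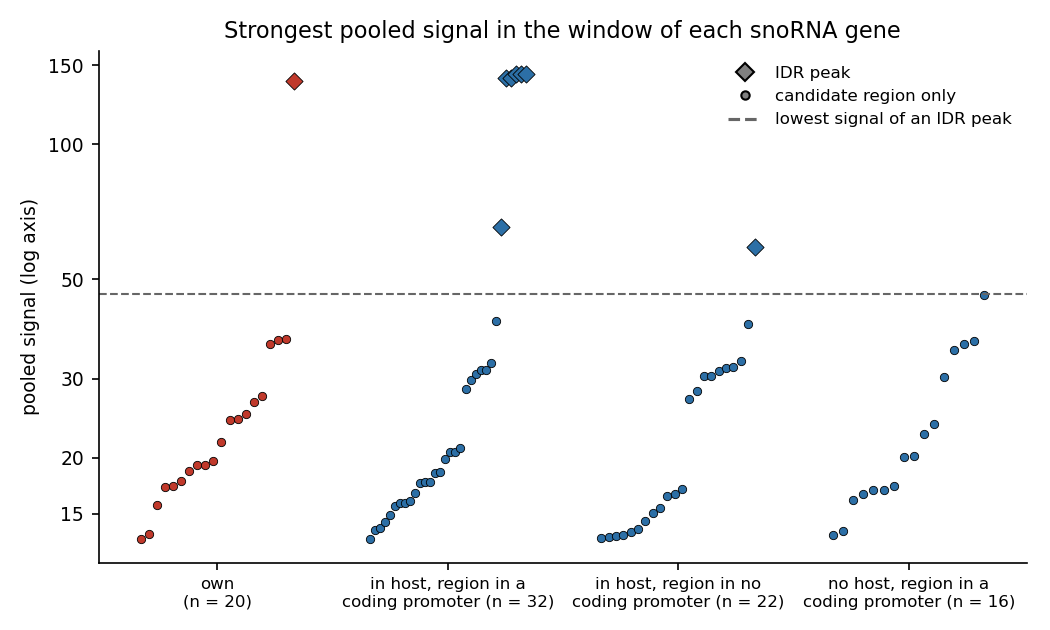
Strongest pooled signal (log axis) in the window of each of the 90 members, ordered by signal within 4 classes, with own members on the left in red. Diamonds are IDR peaks and the dashed line is the lowest signal of any IDR peak, 46.4. A gap separates the diamonds at 138 to 144 from those at 58.9 and 65.3.

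The strongest member region is the IDR peak upstream of rps-12 (chrIII:5679077-5679200). It reached 143.5 in the pooled list, 85.7 in replicate 1 and 53.7 in replicate 2, and it ranked 41 among all pooled regions. Its summit lay 249 bp upstream of F54E7.10 and 616 bp upstream of F54E7.11. It also lay 169 bp upstream of the start of rps-12 and 124 bp upstream of that of ska-3, a divergent neighbour that encodes a spindle and kinetochore protein. The peak was therefore closer to both protein-coding starts than to either snoRNA gene.

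The peak at C06A1.9 (chrII:10563505-10563615) reached 143.2 in the pooled list, 93.3 in replicate 1 and 53.0 in replicate 2. Its summit lay 486 bp upstream of the snoRNA gene and 143 bp upstream of its host cdc-48.1. The peak of the rpl-15 pair (chrIV:654749-655098) reached 140.3 in the pooled list, 55.8 in replicate 1 and 81.0 in replicate 2. Its summit lay 894 bp upstream of K11H12.12, 563 bp upstream of K11H12.13 and 348 bp upstream of rpl-15. In all 3 host loci the host start was the nearer one. Replicate 1 was the higher replicate at rps-12 and cdc-48.1, and replicate 2 at rpl-15.

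T27A8.8 was the only own member with an IDR peak (chrX:16056433-16056782). It reached 138.5 in the pooled list, 69.4 in replicate 1 and 72.3 in replicate 2, so the replicates were closer there than at the other strong peaks. The summit lay 766 bp upstream of the snoRNA gene, in no window of another gene. The 60 bases on either side of it are shown because this is the IDR peak with neither a host gene nor a coding promoter, and because it holds words picked by an earlier search of these data. Capitals mark TATAAA, here on the other strand, and GCAGGGA (chrX:16056548-16056668, plus strand).
T27A8.8 summit: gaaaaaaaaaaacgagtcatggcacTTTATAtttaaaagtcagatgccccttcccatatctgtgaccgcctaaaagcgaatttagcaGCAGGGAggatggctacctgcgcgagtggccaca

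Within 100 bp of the summit on either strand, GCAGGGA was found in 2 of 93 member regions, against 0.702% of 11254 nuclear regions. CCCTGCG, also present at T27A8.8, was found in 2 of 93 against 0.382%, and CTTGCGC in 0 of 93 against 0.88%. TATAAA was found in 19 of 93 (20.4%) against 30.4%. The palindrome-like core of DM-domain sites, ACAATGT or its complement ACATTGT, was found in 4 of 93 (4.3%) against 3.35%. TGTTGC, a core known from MAB-3, was found in 5 of 93 (5.38%) against 7.78%. None of the 6 member IDR peaks held either DM-type core, which says only that these letters are not in those windows.

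The other 2 members with an IDR peak were weaker, and there the peak overlapped the snoRNA gene. ZK994.7 (chrV:8500579-8500645, plus strand) reached 58.9 in the pooled list, 31.1 in replicate 1 and 28.7 in replicate 2, and its summit lay 17 bp upstream of the gene. The gene lies in an intron of pxn-1, a peroxidasin of the extracellular matrix, 5690 bp from the nearest annotated start of that host. The region covers all 67 bp of it, and it is also in the window of a tRNA gene. The region at F07A11.15 (chrII:11620025-11620295, plus strand) covers 266 of its 271 bp and reached 65.3 in the pooled list, 22.5 in replicate 1 and 45.0 in replicate 2. Its summit lay 91 bp after the snoRNA start and 38 bp upstream of din-1, a nuclear receptor cofactor gene on the opposite strand whose exon overlaps it. The snoRNA gene and the din-1 promoter share this region, so the signal cannot be told apart between them. The 60 bases on either side of the ZK994.7 summit (chrV:8500502-8500622) are printed because the summit and the start nearly coincide, with TATAAA, read on the other strand, in capitals as TTTATA. The gene itself is given in lower case. By exact letters it has the D box without the C box, and it lacks the ACA ending.
ZK994.7: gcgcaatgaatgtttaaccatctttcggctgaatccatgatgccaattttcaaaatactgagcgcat
ZK994.7 summit: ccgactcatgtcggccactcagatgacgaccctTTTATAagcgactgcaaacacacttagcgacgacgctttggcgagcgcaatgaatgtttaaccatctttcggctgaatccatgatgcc

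The 54 hosted members were mostly intronic and on the host strand. Of these, 48 were on the host strand, 46 lay in an intron and 8 overlapped a host exon. They were 54 of the 216 snoRNA genes inside protein-coding genes (25%), while 36 of the 130 snoRNA genes outside protein-coding genes were members (27.7%). In 30 of the 54, the strongest region lay in the promoter window of the host itself. In 21 of those 30 the summit was nearer to the host start than to the snoRNA start. The median summit position was 212.5 bp upstream of the host start and 408.5 bp upstream of the snoRNA start.

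**Figure D3:**
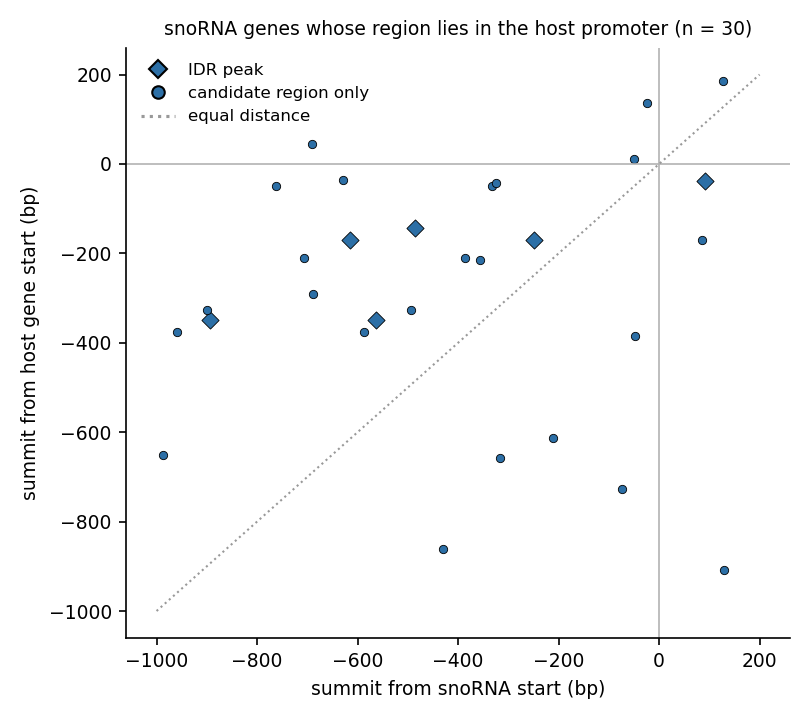
Summit position from the snoRNA start (x axis, bp) and from the host start (y axis, bp, host strand) for the 30 hosted members whose strongest region lies in the host promoter. Diamonds are IDR peaks. Where both values are negative, points above the dotted line are nearer to the host start. In all, 21 of the 30 are nearer to it, and some of these have a positive value on an axis.

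Ribosomal protein genes were counted by the names rpl and rps only, and 5 of these genes hosted 9 members. Ribosomal protein genes under other names were not counted. Beyond rps-12 and rpl-15, R151.11 and R151.12 in rpl-6 shared a region of signal 31.4, with 18.4 in replicate 1 and 16.7 in replicate 2. Y24D9A.9 and Y24D9A.10 in rpl-7A shared a region of signal 20.6, with 7.91 in replicate 1 and 9.95 in replicate 2. F28D1.13 in rps-23 had a region of 29.8 that was called in replicate 1 at 20.1 and not in replicate 2. Of 78 rpl and rps genes, 13 hold a snoRNA gene (16.7%), and among the 10 with an IDR peak 2 do (20%), about the same share. Of the 159 protein-coding genes with a snoRNA gene inside on the same strand, 63 had a candidate region at their own start (39.6%). Protein-coding genes with such a region numbered 3620, beside 19973 nuclear protein-coding genes in all. Of the 63 hosts, 6 had an IDR peak (9.52%, against 4.81% of protein-coding genes with a region). These 6 were rps-12, cdc-48.1, rpl-15, ttc-7 (signal 86.7), larp-1 (59.9) and prpf-4 (52.1).

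Members with a host or shared region below the IDR threshold had hosts and neighbours of several kinds. F54C9.12 in iff-2, the translation factor eIF5A, had a region of 40.3, with 28.4 in replicate 1 and 10.3 in replicate 2, whose summit lay 35 bp upstream of iff-2. K04D7.17, next to rack-1, a ribosome-associated scaffold gene, had 35.9, with 20.6 in replicate 1 and 16.7 in replicate 2. C36E8.11, next to tif-1A, an initiation factor of RNA polymerase I, had 34.7, with 20.9 in replicate 1 and 16.9 in replicate 2. K07C5.11 in nol-56, a core protein of C/D box particles, had 30.7, with 24.7 in replicate 1 and 6.17 in replicate 2. F59C6.15, which shares its region with F59C6.18, had 36.5. None of these 5 was an IDR peak.

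The strongest member without an IDR peak was Y53F4B.47, a gene of 80 bp on chrII that the region covers whole. It reached 46.2 in the pooled list, just under the lowest IDR peak at 46.4, with 37.1 in replicate 1 and 15.2 in replicate 2. The summit lay 45 bp upstream of the snoRNA gene and 176 bp upstream of cmtr-1, a cap methyltransferase gene. M106.6 in mix-1, whose A-like and B-like words are printed above, had 39.7, with 13.9 in replicate 1 and 26.5 in replicate 2. It lies 16071 bp from the nearest mix-1 start, so no coding promoter shares its region.

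Among own members, the next after T27A8.8 were F12F6.11, M163.14 and T06C12.16. F12F6.11 on chrIV reached 36.8 in the pooled list, 16.9 in replicate 1 and 20.8 in replicate 2, and a summit 2 bp upstream of its start. M163.14 on chrX had 36.7, with 28.49 in replicate 1 and 12.6 in replicate 2, and a summit 105 bp upstream. T06C12.16 on chrV had 35.9, with 10.5 in replicate 1 and 22.0 in replicate 2, and a summit 110 bp after the start. Each of these 3 regions covers its whole snoRNA gene. The F12F6.11 region also lies in the window of F12F6.17, and the M163.14 region in that of M163.20. At M163.14 replicate 1 was the higher one and at T06C12.16 replicate 2, by more than a factor of 2 in each.

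The following own members were closer to the bulk of the list. K09E9.5, an ACA-ending gene on chrX, had 26.6, with 12.8 in replicate 1 and 12.3 in replicate 2, and a summit 8 bp after the start. T26A8.6 had 25.1, with 18.1 in replicate 1 and 12.2 in replicate 2, and C16D9.10, which has exact C and D boxes, had 24.4, with 12.4 in replicate 1 and 11.9 in replicate 2. In these 3 genes too the region covers the whole snoRNA gene. Y73B6A.15 had 27.4 but was called in replicate 2 alone, at 19.98, and its summit lay 1000 bp upstream, at the very end of the window. C18A3.12 at 21.7 and T19E7.29 at 19.7 were called in replicate 1 alone. The C16D9.10 region also lies in the window of C16D9.13, and the T19E7.29 region in that of T19E7.25. T28B8.11 had 24.3, H09I01.2 19.3 and T21B4.20 19.2, each called in both replicates.

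The rule's window sets which genes count. Just inside its upstream end were Y73B6A.15 at 1000 bp, JC8.15 at 987 bp and Y11D7A.22 at 977 bp, with signals of 27.4, 13.2 and 17.0. Just outside were C18A3.24 at 1001 bp, C04F12.17 at 1002 bp and C05H8.3 at 1011 bp, with signals of 13.5, 16.9 and 14.5. Just inside the downstream end were F32E10.10 at 192 bp, F38E11.14 at 166 bp and C08D8.3 at 157 bp, with signals of 17.2, 17.5 and 31.7. Just outside it were T05A6.20 at 231 bp, R12E2.17 at 244 bp and ZK20.9 at 278 bp, with signals of 28.3, 14.0 and 20.8. The genes on the outside had signals in the same range as those on the inside.

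Summits lay within 200 bp of the snoRNA start in 41 of 90 members, made of 9 of 20 own members and 32 of 70 with a host or shared region. They lay over 500 bp upstream in 27 of 90. The strongest region overlapped the snoRNA gene itself in 8 of 20 own members (40%) and in 28 of 70 others (40%). Outside protein-coding genes, the 200 bp before the start held more summits than any other 200-bp bin, 10 for every 100 snoRNA genes. Inside protein-coding genes the same bin held 6.94 for every 100, and a bin from 1800 to 1601 bp upstream held more, 7.87.

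**Figure D4:**
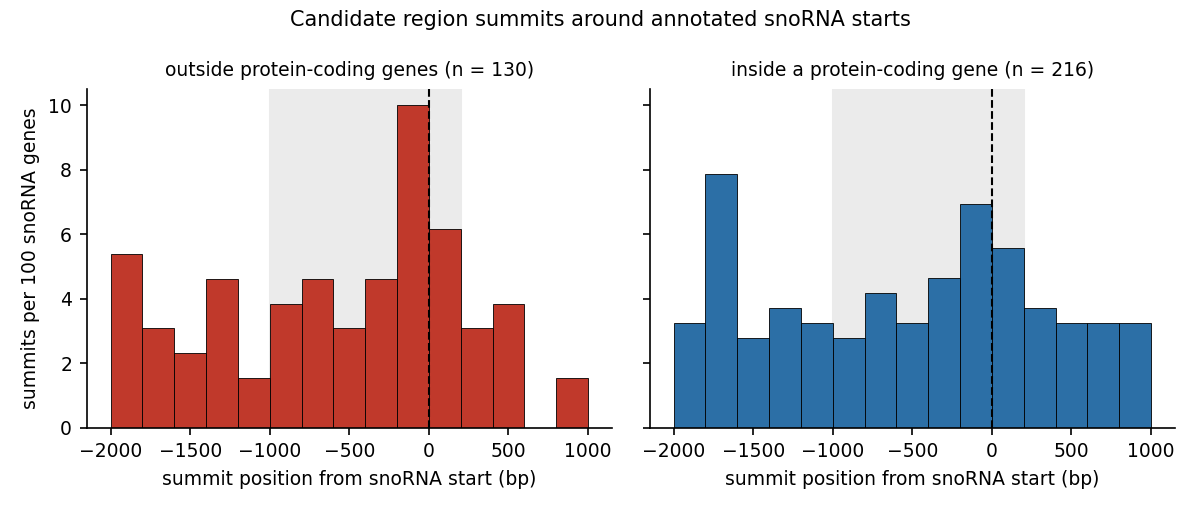
Summits of pooled candidate regions in bins of 200 bp around the annotated start, for each 100 snoRNA genes outside (left, n = 130) and inside (right, n = 216) protein-coding genes. The grey band is the window of the rule, so only members lie in it, and the bin just upstream of the start reaches 10 on the left and 6.94 on the right.

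Pooled signals of the member regions had a median of 19.2 and ranged between 13.1 and 144, against a median of 16.6 for all pooled regions. The own regions had a median of 19.5 and the host or shared regions one of 18.5. Of the 93 member regions, 60 (64.5%) were among the stronger 50% of the pooled list, made of 18 of 24 own regions (75%) and 42 of 69 host or shared regions (60.9%). Among the strongest 5% of the list were 17 of 93 (18.3%), which include the 6 IDR peaks. The list is the one that chose the members, so these shares are a description. By chromosome, 20 of 74 snoRNA genes were members on chrI, 19 of 71 on chrII, 11 of 54 on chrIII, 20 of 59 on chrIV, 15 of 55 on chrV and 5 of 33 on chrX. All 5 members on chrX were own members, whereas chrIII had 0 own members among its 11.

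Replicate lists held the member regions unevenly. Of 93 regions, 48 overlapped a candidate region of both replicates (51.6%), against 39.2% of all pooled regions. A further 24 were in replicate 1 alone, 19 in replicate 2 alone and 2 in neither. The own regions had 13 of 24 in both, and the host or shared regions 35 of 69. Regions in both replicates include all 6 IDR peaks. The regions that were missing from a replicate had pooled signals no higher than 29.8.

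Between replicates, the log2 signals of the 48 regions had a Pearson correlation of 0.613 and a Spearman correlation of 0.382. Without the 6 IDR peaks the values were 0.079 and 0.0996 over 42 regions. Those 6 are the member regions of highest pooled signal, which itself comes from the 2 replicates. Leaving them out narrows the range, so the lower values cannot show what the agreement rests on. Over all 4398 nuclear regions in both lists, IDR peaks included, the correlations were 0.484 and 0.239. These are descriptions across regions of the same 2 libraries. The median of replicate 2 over replicate 1 was 0.863 for member regions and 0.901 for all regions in both lists.

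**Figure D5:**
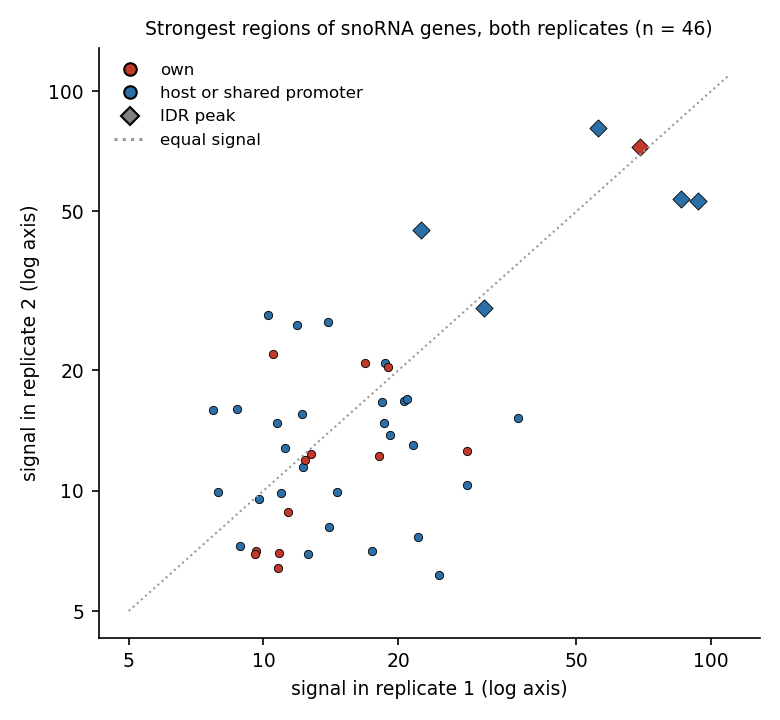
Signal in replicate 1 (x axis) and in replicate 2 (y axis), both on log axes, of the 46 strongest regions of members that were called in both replicates. The 6 IDR peaks (diamonds) lie at the upper right, and the other points scatter on both sides of the dotted line of equal signal.

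The members whose replicates differed most were ranked by how far replicate 2 over replicate 1 lay from its median over all regions, 0.901. K07C5.11 came first and had a replicate 2 signal 0.25 times that of replicate 1. smy-2 had 10.2 in replicate 1 and 27.5 in replicate 2, a ratio of 2.68. It lies in an intron of C33A12.3 and is a member by its annotated biotype. By exact letters it has the D box without the C box and no ACA ending. ZK484.9 had 22.1 in replicate 1 and 7.67 in replicate 2, F54C9.12 had a ratio of 0.363, and F59C6.15 had 11.9 in replicate 1 and 26.1 in replicate 2. The F59C6.15 gene is 94.9% identical to F25H2.15, and 71.9% of the 31-base words of its region are unique. Reads from the other words could also come from elsewhere in the genome. Of the 93 regions, 5 had under 90% unique words (5.38%), against 3.6% of nuclear regions. They were 3 of 24 own regions (12.5%) and 2 of 69 host or shared regions (2.9%). The own regions were those of K09E9.5 (87.5% unique), T26A8.6 (89.7%) and F25H2.15 (75.9%).

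The median GC content within 100 bp of the summit was 35.3% for member regions and 30.1% for all nuclear regions. It was 42.8% for the 6 member IDR peaks and 38.8% for the 185 nuclear IDR peaks. Own regions had 32.8% and host or shared regions 37.8%. The IDR peak at C06A1.9 had 33.3%. The part of base composition in the signals was not tested.

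Protein partners of snoRNAs were looked up in the same lists. Of 8 genes of snoRNA particle proteins, 3 had a candidate region in the promoter window. These were fib-1, the fibrillarin methyltransferase, at 29.7, nol-56 at 30.7 and nola-3, an H/ACA particle protein, at 47.2, and nola-3 alone had an IDR peak. Of 5 genes of snoRNA processing (xrn-2, crn-3, dis-3, exos-3 and mtr-4), 0 had a region. Of 7 matched genes of the SNAPc list, the factor that starts transcription at snRNA-type promoters, only snpc-3.4 had one, at 26.2, and 0 had an IDR peak. For candidate regions, the background is 3620 protein-coding genes with one, beside 19973 nuclear protein-coding genes in all. For IDR peaks it is 4.81% of protein-coding genes with a region. With 4 genes that have a region in all, these lists describe single genes.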

How the data were processed

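DMD-4 ChIP-seq peak lists of 2 biological replicates, which form 1 group, were used as deposited, on ce11. Per the labels, chromatin of whole L2 larvae was sheared by sonication. The authors called candidate regions for each replicate and for both pooled, with an alignment of a control, and derived the 212 IDR peaks from them, per the deposited descriptions of the files. The aligner, the peak caller and the IDR threshold were not given in the sources used here, and read depth is unknown. The deposited signal of a region is the authors' enrichment value, used here to describe and rank regions. Ranks took no account of the deposited −log10 q-value. The deposited summit offset in bp gives the position of a summit. Lists on ce10 and signal tracks were not used here.

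Genes came from Ensembl release 115 and sequences from the RefSeq copy of WBcel235, which is the same assembly as ce11. A region belonged to a gene when its summit lay 1000 bp upstream to 200 bp downstream of an annotated start. A replicate held a region when the lists overlapped by at least 1 bp, and the highest overlapping signal was taken. Uniqueness is the share of 31-base words that occur once in the genome. Positions in the window were tested on simulated data. Analyses used Python 3.11.15, numpy 2.4.6, scipy 1.17.1 and matplotlib 3.10.9.

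The members, gene lists and words were chosen with earlier results of these data known, so no test was run and counts stand beside those of all genes or regions. Genes named were all members with an IDR peak and the next 12 own and 6 other members by signal. Others were those at the ends of the window and the 5 whose replicates differ most. Members in rpl and rps genes and members with both tRNA-like words were named too. The last 2 of these choices were made after the values were seen.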

Additional observations from a re-analysis of the deposited data

How the results depend on the processing

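The window set most counts. With 500 bp upstream to 100 bp downstream there were 57 members, 4 with an IDR peak and 0 own members with one, since the T27A8.8 summit is farther away. With 2000 bp upstream to 500 bp downstream there were 141 members, a median signal of 18.0, and 82 regions in both replicates. When a region went only to the nearest start, 57 members were left, 2 with an IDR peak, and 10 of 29 named genes had no region left. With the strongest 5% of pooled regions in place of IDR peaks, 19 members and 4 own members were called. Without the sharing criterion there were 36 own members. In 1 replicate alone, leaving out each in turn, members numbered 118 to 122, own members 26 to 33 and the median signal was 9.43 to 10.9. The lists also start lower, at 6.83 in replicate 1 and 6.12 in replicate 2, against 13.0 in the pooled list. Why the medians were lower was not tested. With the 212 strongest regions of the replicate list in place of IDR peaks, 10 to 11 members and 1 own member were called. In all, 34 of 48 recomputed values stayed within 1.5 times or within the spread between replicates, and the cause of the other moves was not tested. Distinct regions are already what the median and the replicate count use, so that setting gives no other value for them. No paired analysis was possible because there is 1 group and no test. Signals set no depth, and regions below the candidate threshold are not listed.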

Other observations

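Both replicate lists also hold regions at snoRNA genes that the pooled list lacks. A candidate region lay in the window of 122 snoRNA genes in replicate 1 and of 118 in replicate 2, and 66 genes had one in both. Of these 66, 12 were not members. T27A3.9 had the strongest of them in replicate 2, with 11.5 in replicate 1 and 18.0 in replicate 2, yet the summits lay 13 bp after the start in replicate 1 and 195 bp before it in replicate 2. C01B10.48 had the values closest to each other by ratio, with 9.51 in replicate 1 and 9.30 in replicate 2. K07C10.2 had 7.01 in replicate 1 and 7.65 in replicate 2, with summits 74 and 28 bp upstream. Of the 90 members, 54 had a region in the window in both replicate lists and 4 in neither.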
